A study of Mus musculus with 4 samples.

Results

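Complement genes, 9 in all, of the complement system were followed through single-cell RNA-seq of mouse hindpaw leukocytes: the 3 chains of C1q (C1qa, C1qb, C1qc), the components C4b, C3 and Cfb, the stabiliser Cfp (properdin), and the anaphylatoxin receptors C3ar1 and C5ar1. They were chosen by name, as 9 of the 32285 gene rows that each of the 4 matrices holds. The study asked how leukocytes of the distal limb differ between diabetic and wild-type mice at a younger and an older age. Diabetic mice carried the Lepr db/db genotype, a loss of the working leptin receptor in every cell of the body, on the C57BLKS/J background, and controls were their wild-type (WT, Lepr WT/WT) littermates, all male. Each of the 4 conditions, WT and DB at 12 weeks (12-week-WT, 12-week-DB) and at 21 weeks (21-week-WT, 21-week-DB), was 1 library of cells pooled from 2 to 3 mice with uninjured paws, digested with collagenase and sorted for CD45, the surface protein of all leukocytes. With 1 library per condition there was no replicate, so differences between conditions were described with counting intervals and no test was made of them.

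Complement is a cascade of proteins that tags microbes, immune complexes and dying cells. C1q recognises these targets and starts the classical pathway by way of C4, the pathways converge on cleavage of C3, and factor B with properdin forms and holds the alternative pathway's convertase. The liver makes most of the circulating proteins, while C1q is made chiefly by tissue macrophages, and the small fragments released from C3 and C5 act on leukocytes through C3ar1 and C5ar1.

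The libraries held 5998, 7463, 8208 and 9124 barcodes, in the order WT then DB at 12 weeks and WT then DB at 21 weeks, which holds for every set of 4 values given here. Of these, 5271, 6552, 7270 and 8707 passed the limits of 200 detected genes or more and 10% or less of UMIs (unique molecular identifiers, 1 per captured RNA molecule) from mitochondrial genes, with a median of 5355 to 8000.5 UMIs. A small number of barcode sequences occurred in more than 1 library, 63, 83, 181 and 191 of them, of which the WT and DB libraries at 21 weeks shared 154, and leaving them out moved none of the macrophage ratios given here across the 1.5-fold line. Cell classes were set by a gate on marker genes that held none of the complement genes, at least 3 markers of 1 class in a barcode, and 1781, 2062, 1729 and 1382 barcodes passed the macrophage gate. Its 6 markers, Pf4, Mrc1, Adgre1, Ms4a7, Fcgr1 and Csf1r, were all detected there and summed to 5119, 5058, 3809 and 4343 counts per 1000000 UMIs (CPM), against 98.7, 105, 51.4 and 34.8 CPM in T cells. The macrophage gate also held UMIs of other classes' markers, among them 4.31 to 22.9 CPM of the stromal list and 131 to 470 CPM of the monocyte list, and their part in the values below was not tested.

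The 9 genes lie at 6 places in the genome (GRCm38, GENCODE M21), all on the minus strand. C1qb, C1qc and C1qa sit side by side within 18.7 kb of chromosome 4, at chr4:136880129-136898803, a stretch that overlaps no gene other than these 3. C4b and Cfb are both in the major histocompatibility region of chromosome 17, at chr17:34728380-34743882 and chr17:34856374-34862518, and C3 lies farther along that chromosome at chr17:57203970-57228136. Cfp is at chrX:20925454-20931555, C3ar1 at chr6:122847138-122856161 and C5ar1 at chr7:16246743-16259540. The upstream windows of C1qb and C3 are shown because these genes had opposite patterns, C1q in macrophages and C3 in monocytes and neutrophils. Each is the 250 bases before the RefSeq start on GRCm38.p6, written 5′ to 3′ on the gene's own minus strand, with matches to the searched motifs in capitals.
C1qb, chr4:136886201-136886450: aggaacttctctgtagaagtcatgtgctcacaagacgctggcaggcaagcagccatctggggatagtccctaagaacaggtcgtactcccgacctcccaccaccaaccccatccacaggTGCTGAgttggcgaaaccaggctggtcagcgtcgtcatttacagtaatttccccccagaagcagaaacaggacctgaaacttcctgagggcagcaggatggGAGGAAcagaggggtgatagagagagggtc
C3, chr17:57228137-57228386: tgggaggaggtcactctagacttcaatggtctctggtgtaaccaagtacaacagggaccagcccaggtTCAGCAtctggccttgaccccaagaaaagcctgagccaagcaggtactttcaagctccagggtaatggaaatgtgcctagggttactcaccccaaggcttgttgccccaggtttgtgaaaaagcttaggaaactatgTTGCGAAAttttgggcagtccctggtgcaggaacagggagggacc
The capitals in C1qb are TGCTGA, a half-site of MAF factors, and GAGGAA, the core bound by PU.1 and its ETS relatives, whose first base is at -30. In C3 they are the MAF half-site on the opposite strand, first base at -182, and a C/EBP motif, TTGCNNAA, at -45, and in neither window do the matches overlap. RefSeq windows were at hand for 6 of the 9 genes, C1qb, C1qc, C3, Cfp, C3ar1 and C5ar1, and 6 motifs were searched on both strands. GAGGAA was in C1qb and C1qc and in 23.3% of all 32851 windows of this length, TGCTGA was in C1qb, C3, C3ar1 and C5ar1 and in 16.1%, and TTGCNNAA was in C3 and in 9.56%. Of the elements of interferon responses, GAAANNGAA, part of the interferon-stimulated response element, was in C5ar1 and in 7.13% of all windows, while TTCNNNGAA, the gamma-interferon activation site, and GGAANNGAA, part of the ETS-IRF composite, were in none of the 6 and in 7.02% and 6.99% of all windows. These are matches of letters in a short window, and nothing was measured about binding.

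C1q transcripts were a macrophage signal in all 4 libraries. C1qa stood at 2647 (2623 to 2670), 1749 (1732 to 1766), 2364 and 2497 CPM in macrophages, with exact Poisson 95% intervals here and below that cover counting error only. C1qb stood at 1738, 1478, 1863 and 2216 CPM, and C1qc at 2326, 1606, 1913 and 2204 CPM. For each chain the lowest macrophage value was in 12-week-DB. Below them the small Langerhans-like class (211 to 585 CPM of C1qa), neutrophils (55.0 to 225 CPM) and monocyte-derived cells (33.8 to 293 CPM) overlapped, and type 2 conventional dendritic cells (cDC2) held 49.9 to 91.3 CPM. In T cells, which do not make C1q, C1qa was at 38.3, 24.3, 24.0 and 15.8 CPM, the level taken here as background from free RNA. At least 1 C1qa UMI was found in 91.6%, 86.2%, 87.2% and 93.6% of macrophages, with median depths of 9116 to 10707 UMIs, and in 20.9%, 12.6%, 13.3% and 8.99% of T cells, with median depths of 5342 to 6618.5 UMIs. After every cell was thinned to 2000 UMIs the shares were 83.9%, 73.7%, 78.4% and 86.3% of macrophages and 6.54%, 4.92%, 3.62% and 2.73% of T cells.

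**Figure D1:**
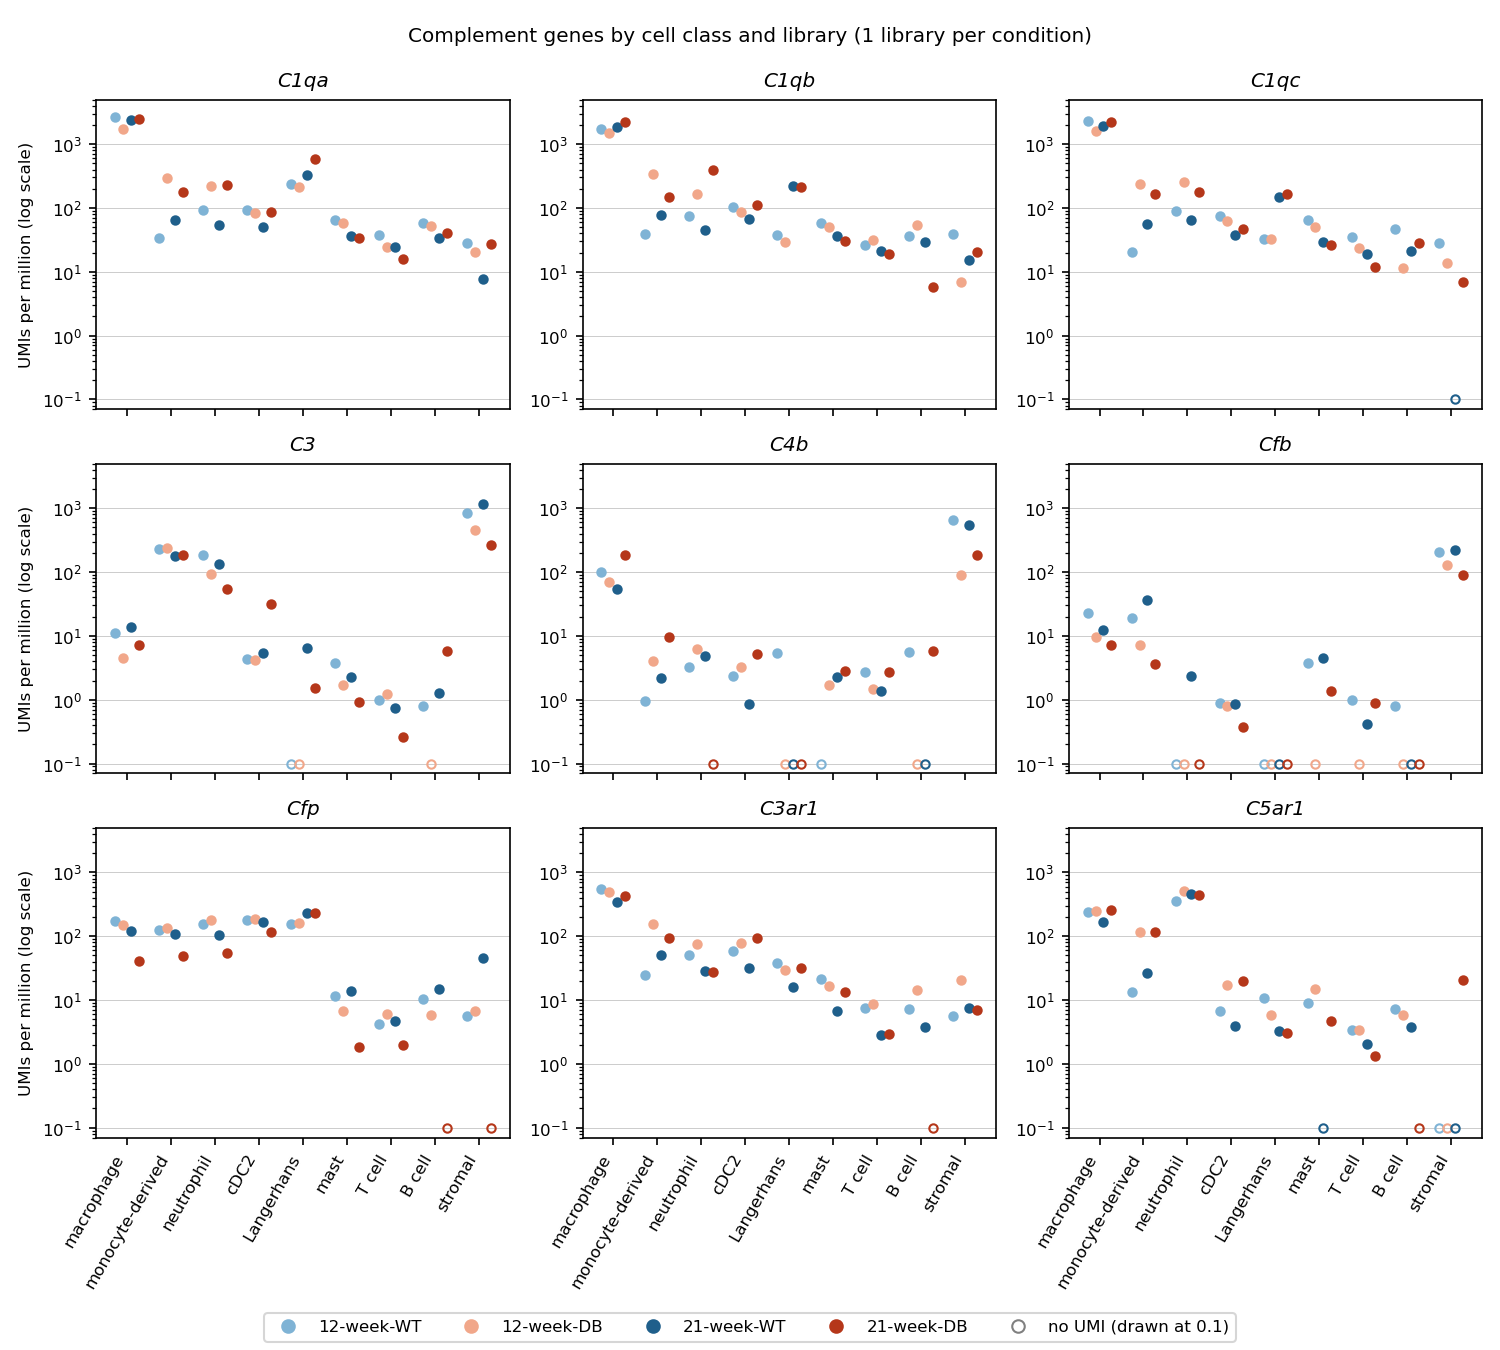
Each panel shows 1 complement gene, with CPM on a log axis, 1 point per library, and open points for classes with no UMI. The classes drawn are macrophages, monocyte-derived cells, neutrophils, cDC2, Langerhans-like cells, mast cells, T cells, B cells and stromal barcodes. The C1q chains, C4b, C3ar1 and C5ar1 are far higher in macrophages than in T cells. Among the classes drawn, C3 is highest in stromal and monocyte-derived cells and Cfp is spread over the myeloid ones.

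The 3 chains, which assemble in equal numbers into the C1q molecule, were found together in most macrophages. All 3 had a UMI in 86.0%, 79.1%, 83.0% and 90.3% of macrophages, and none of them had one in 2.81%, 6.40%, 6.94% and 2.68%. In T cells all 3 were present in 0.485%, 0.740%, 0.314% and 0.264% of cells. The spread between single macrophages was wide. The 10th percentile of the summed chains was 213, 105, 106 and 786 CPM of the cell's own UMIs, the median was 7938, 4573, 6443 and 6506 CPM, and the 90th percentile was 13296, 11139, 12563 and 14152 CPM. The 12-week-DB library had the lowest median, and the low end of the distribution was highest in 21-week-DB.

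**Figure D2:**
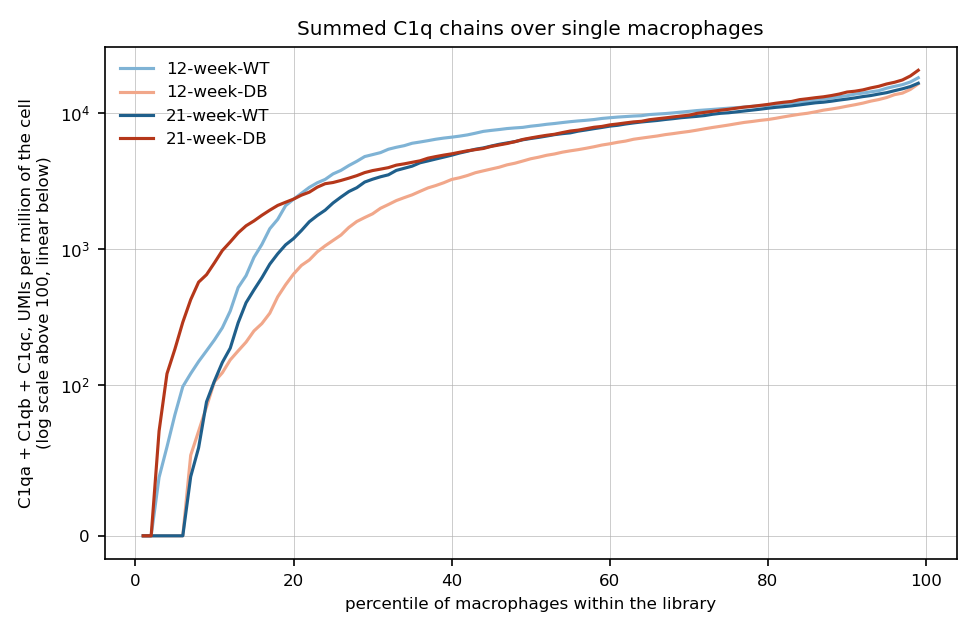
Summed C1qa, C1qb and C1qc per macrophage, in CPM of the cell's own UMIs, against the percentile of the cell within its library, with 1 line per library and an axis that is linear below 100 and logarithmic above. The 12-week-DB line lies lowest through the middle, with a median of 4573 CPM, and the 21-week-DB line lies highest at the 10th percentile, at 786 CPM.

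C1qa made up 39.4%, 36.2%, 38.5% and 36.1% of C1q UMIs in macrophages. In T cells its share was 38.5% (33.7 to 43.4%), 30.7% (26.9 to 34.6%), 37.7% (33.8 to 41.7%) and 34.0% (29.9 to 38.2%), lower than in macrophages beyond counting error in 12-week-DB. In cDC2 it was 33.9%, 35.6%, 32.1% and 35.2%, and C1qb was 40.6% of C1q UMIs there over all libraries. In the Langerhans-like class, 14, 32, 20 and 54 barcodes with markers such as Cd207 and Epcam, C1qa was higher, at 76.8% (exact binomial 95% interval 63.6 to 87.0%), 77.4% (67.6 to 85.4%), 47.2% (40.5 to 54.1%) and 60.5% (56.5 to 64.3%) of C1q UMIs. In 21-week-WT 1 barcode held 108 of that class's 218 C1q UMIs. In 21-week-DB, where the class was largest, 381 C1qa UMIs stood beside 140 of C1qb and 109 of C1qc, and 96.3% of the barcodes had a C1qa UMI, or 61.1% after thinning.

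**Figure D3:**
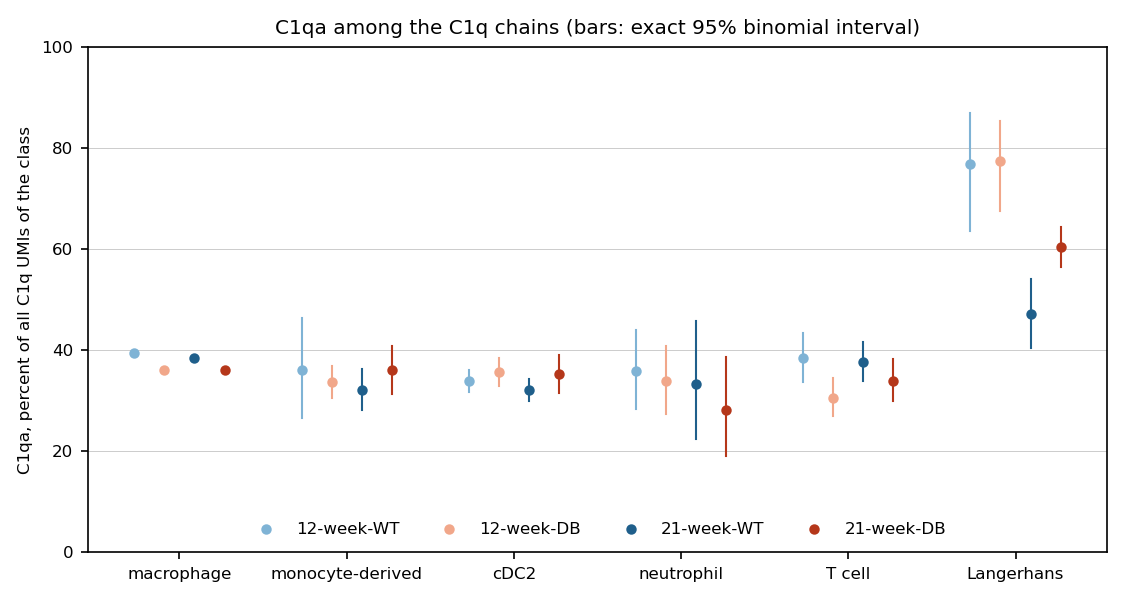
C1qa as a percentage of all C1q UMIs of a cell class, with 1 point per library and exact 95% binomial intervals as bars. Macrophages lie between 36.1% and 39.4% and Langerhans-like cells between 47.2% and 77.4%.

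Outside macrophages much of the C1q signal came from few barcodes. Neutrophils held 156, 204, 69 and 89 C1q UMIs, in 56, 31, 24 and 7 barcodes, and the 5 richest barcodes held 57.7%, 83.8%, 72.5% and 97.8% of them. Monocyte-derived cells held 97, 862, 545 and 405, of which the 5 richest barcodes held 16.5%, 52.2%, 37.2% and 77.5%. Per UMI of the class, summed C1q was 259, 643, 165 and 801 CPM in neutrophils and 93.6, 872, 199.8 and 484 CPM in monocyte-derived cells. The summed macrophage markers were 378, 1559, 294 and 1088 CPM in neutrophils and 618, 1414, 729 and 592 CPM in monocyte-derived cells. Their part in the C1q values of these classes was not tested.

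C4b, the classical pathway component that C1-associated proteases cleave, was found in macrophages and stromal barcodes. It stood at 102, 70.7, 53.6 and 187 CPM in macrophages and at 0.856 to 5.15 CPM in cDC2, and the 21-week-DB macrophages were the highest of the 4. At least 1 UMI was found in 29.3%, 18.5%, 19.5% and 48.6% of macrophages (15.4%, 8.98%, 8.81% and 26.3% thinned) and in 1.78%, 0.905%, 0.392% and 1.64% of T cells. The few stromal barcodes, 28, 26, 14 and 22, held C4b at 644, 88.4, 542 and 186 CPM, but only 6, 4, 3 and 3 of them had a UMI, and 1 barcode held 50 of the 114 UMIs in 12-week-WT and 48 of the 71 in 21-week-WT. The near-identical C4a did not exceed 1.66 CPM in any of the macrophage, neutrophil or T cell pools, and reads of this pair can be split between the copies, so the C4b values are uncertain to that extent.

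C3, the central component of all pathways, had another distribution. Monocyte-derived cells held it at 233, 238, 180 and 183 CPM and had a UMI in 67.0%, 63.9%, 57.4% and 60.7% of cells, whereas macrophages held 11.1, 4.43, 13.9 and 7.33 CPM and T cells 0.265 to 1.22 CPM. Neutrophils held 182, 94.5, 131 and 54.0 CPM, from 110, 30, 55 and 6 UMIs. The 12-week-WT neutrophils lay within the range of the monocyte-derived cells, and the other 3 neutrophil values lay below it. Stromal barcodes were higher still at 836, 456, 1183 and 262 CPM, from 12, 9, 4 and 9 barcodes with a UMI. In cDC2 the 21-week-DB library stood apart, at 31.7 CPM against 4.24 to 5.31 CPM elsewhere, and 5 barcodes held 53.5% of its 86 UMIs. Over all libraries macrophages held 21.4% of C3 UMIs and monocyte-derived cells 34.3%.

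Cfb, the catalytic part of the alternative convertase, was low throughout. Macrophages held 23.0, 9.59, 12.5 and 7.19 CPM, monocyte-derived cells 19.3, 7.08, 36.3 and 3.59 CPM, and the stromal barcodes 209, 129, 221 and 89.8 CPM. Neutrophils held 1 Cfb UMI in the 4 libraries together.

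Cfp, which stabilises that convertase, was shared by the myeloid classes and was lowest in 21-week-DB in several of them. It stood at 172, 151, 120 and 41.4 CPM in macrophages, at 176, 188, 168 and 117 CPM in cDC2, and at 124, 137, 107 and 49.0 CPM in monocyte-derived cells. Neutrophils held 157, 176, 105 and 54.0 CPM, so these 4 classes overlapped. Langerhans-like cells, at 153, 158, 231 and 229 CPM, did not have their lowest value in 21-week-DB. A Cfp UMI was found in 59.0%, 58.0%, 48.8% and 23.4% of macrophages (26.0%, 22.5%, 17.8% and 7.88% thinned) and in 1.16 to 3.62% of T cells.

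Both receptors were present in macrophages, and C5ar1 was higher in neutrophils. C3ar1, the receptor of C3a, stood at 541, 484, 341 and 423 CPM in macrophages, with a UMI in 82.9 to 89.3% of cells (44.8 to 58.6% thinned, 1.43 to 5.02% of T cells unthinned). It stood at 31.6 to 93.9 CPM in cDC2, 25.1 to 158 CPM in monocyte-derived cells and 75.6 CPM or less in neutrophils, which overlapped. C5ar1, the receptor of C5a, stood at 358, 510, 454 and 450 CPM in neutrophils, at 236, 248, 169 and 257 CPM in macrophages, and at 13.5, 118, 26.8 and 115 CPM in monocyte-derived cells. The lowest neutrophil value was above the highest macrophage value. A C5ar1 UMI was found in 61.1 to 71.9% of neutrophils, 61.4 to 76.0% of macrophages and 0.793 to 2.10% of T cells.

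Differences between classes were tested with the 4 libraries as 4 pairs, by the quasi-likelihood test of edgeR, blocked on library, and with Benjamini-Hochberg adjustment over all genes tested. The p-values measure the spread between libraries of different condition, each a pool of mice. The neutrophil comparison is an exception: its spread came out as 1 common value for all genes. Its p-values therefore do not measure the spread of a single gene over the 4 pairs. Against cDC2, 7 of the 9 genes were higher in macrophages and 1 was lower, where 23.5% of all 12474 genes were higher and 22.8% lower, 46.4% in all. C4b was higher by 5.06 on the log2 scale (SE 0.18, edgeR adjusted p = 2.59e-06), C1qc by 5.01 (SE 0.17), C1qa by 4.74 (SE 0.18), C5ar1 by 4.31 (SE 0.29), C1qb by 4.14 (SE 0.13), Cfb by 3.92 (SE 0.22) and C3ar1 by 2.68 (SE 0.20). Cfp was the gene that was lower in macrophages, with a log2 difference of -0.74 (SE 0.22, edgeR adjusted p = 0.0260). That call was lost without the 12-week-DB library (edgeR adjusted p = 0.0582) and without the 21-week-WT library (edgeR adjusted p = 0.0708). C3 had a log2 difference of -0.00 (SE 0.61), and without the 21-week-DB library, whose cDC2 held C3 in few barcodes, it was 0.92 (edgeR adjusted p = 0.0141). Of the 1898 barcodes of the cDC2 gate, 498 fell into clusters named macrophage, and whether these were macrophages was not tested.

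Against monocyte-derived cells, 6 of the 9 genes were higher in macrophages and 1 was lower, with 18.3% of all 11665 genes higher and 18% lower, 36.3% in all. The 6 were C4b (log2 difference 4.41, SE 0.24), C1qc (4.17, SE 0.47), C1qa (4.14, SE 0.46), C1qb (3.71, SE 0.40), C3ar1 (2.37, SE 0.31) and C5ar1 (1.78, SE 0.34). C3 was lower by the largest amount of the 9, with a log2 difference of -4.80 (SE 0.26, edgeR adjusted p = 2.11e-07). Cfb (-0.65, SE 0.35, edgeR adjusted p = 0.176) and Cfp (-0.07, SE 0.13, edgeR adjusted p = 0.727) did not pass. Most of the monocyte-derived gate, 358 of its 601 barcodes, fell into macrophage clusters and 222 into the monocyte cluster.

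In neutrophils against macrophages, 2 genes were higher and 6 lower, with 17.1% of all 11506 genes higher and 17.5% lower, 34.6% in all. The study's inferred complement signals from neutrophils could not be detected in DB mice at 12 weeks. This comparison is between cell classes over all 4 libraries and does not address that difference between DB and WT. Neutrophil values of the 12-week DB and WT libraries are given further below. C3 was higher in neutrophils by 4.24 (log2, SE 0.28) and C5ar1 by 1.48 (SE 0.23, edgeR adjusted p = 4.07e-09). The log2 differences of the C1q chains were -3.66 (C1qa, SE 0.30), -3.33 (C1qb, SE 0.29) and -3.44 (C1qc, SE 0.29). C4b was at -3.86 (SE 0.45), Cfb at -3.94 (SE 1.07, edgeR adjusted p = 0.00132) and C3ar1 at -2.77 (SE 0.28), and Cfp at 0.52 (SE 0.24) did not pass (edgeR adjusted p = 0.0758). The Cfb call was lost without 12-week-WT (edgeR adjusted p = 0.118). The median of all genes was -0.31 in this comparison. These log2 differences come from counts scaled by TMM in edgeR and are not ratios of the CPM given above. Cfp, at 0.52, stood at 157, 176, 105 and 54.0 CPM in neutrophils and at 172, 151, 120 and 41.4 CPM in macrophages.

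Within macrophages the genes divided along the groups that the study used. H2-Ab1, a chain of the antigen-presenting MHC class II molecule, was high in 41.3%, 41.9%, 55.8% and 13.9% of macrophages, while 62.0%, 52.5%, 53.9% and 66.2% had a UMI of Lyve1, a hyaluronan receptor of resident perivascular macrophages. All 9 genes differed between H2-Ab1 high and low cells, 2 higher and 7 lower in the high cells, where 18.1% of all 12075 genes were higher and 18.2% lower, 36.3% in all. Cfp was higher in the H2-Ab1 high cells by 1.29 (log2, SE 0.12, edgeR adjusted p = 5.04e-05) and C3 by 2.07 (SE 0.30, edgeR adjusted p = 0.000779). C4b was the furthest in the other direction, with a log2 difference of -2.46 (SE 0.22, edgeR adjusted p = 4.48e-05). The others were C5ar1 (-1.55, SE 0.09), C1qc (-1.46, SE 0.09), C1qa (-1.39, SE 0.09), Cfb (-1.11, SE 0.20), C1qb (-0.89, SE 0.08) and C3ar1 (-0.89, SE 0.08). Summed C1q was 3208, 2823, 3913 and 2634 CPM in the high cells and 9481, 6294, 9236 and 7719 CPM in the low cells, with no overlap.

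Lyve1+ and H2-Ab1 high cells are overlapping groupings of the same macrophages, and the signs were opposite in them. By Lyve1, 7 genes were higher and 2 lower in Lyve1+ cells, with 16.1% of all 12139 genes higher and 18% lower, 34% in all. C4b was higher in Lyve1+ cells by 2.68 (log2, SE 0.30, edgeR adjusted p = 0.000344) and the C1q chains by 0.79 to 1.34, while C3 (-1.94, SE 0.24) and Cfp (-0.81, SE 0.17) were lower. C4b in Lyve1+ cells was 149, 123, 89.3 and 238 CPM, and in Lyve1- cells 21.7, 9.51, 7.96 and 78.4 CPM. Cells with a UMI of Vsig4, a macrophage receptor for C3b, made up 23.4%, 17.1%, 28.3% and 38.1% of macrophages. In them 6 genes were higher and 2 lower, with 15.1% of all 11614 genes higher and 14.1% lower, 29.3% in all. These were C4b by 1.14 (SE 0.18), C1qc by 1.03 (SE 0.08), C1qa by 0.93 (SE 0.07), C1qb by 0.64 (SE 0.06), C5ar1 by 0.63 (SE 0.08) and C3ar1 by 0.55 (SE 0.06), against C3 (-1.41, SE 0.29) and Cfp (-1.09, SE 0.12). A cell with more UMIs passes a rule of any UMI more readily, and thinning every cell before grouping changed no call of these 9 genes.

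**Figure D4:**
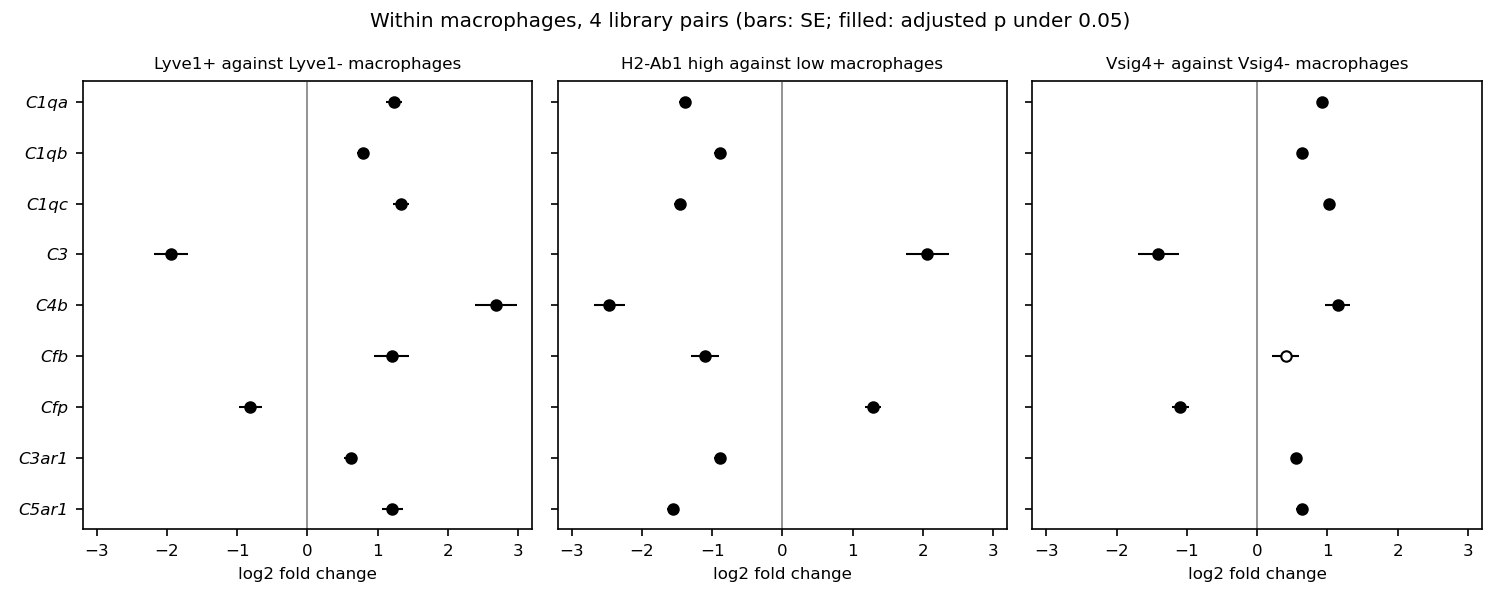
Log2 fold change of each of the 9 genes in 3 comparisons within macrophages, 1 panel each (Lyve1+ against Lyve1-, H2-Ab1 high against low, Vsig4+ against Vsig4-), with the SE as bars and filled points for an adjusted p under 0.05. C3 and Cfp lie on the opposite side from the C1q chains, C4b, C3ar1 and C5ar1 in all 3 panels.

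At 12 weeks, macrophages of the DB library held less C1q than those of the WT library, each chain being lower. A ratio was called when it passed 1.5-fold, provided that the gene reached 100 CPM in 1 of the libraries and 50 UMIs over both, which 7 of the 9 genes met. C1qa was the 1 gene called, at 0.661 of the WT level (0.652 to 0.670), near the line, where 6.85% of all 1753 genes were called in either direction. C1qc was at 0.690, C4b at 0.694 and C1qb at 0.850, all short of the call. Cfp (0.878), C3ar1 (0.894) and C5ar1 (1.05) were closer to 1. C3 fell under the limits at 11.1 and 4.43 CPM, as did Cfb at 23.0 and 9.59 CPM. The median log2 ratio was -0.23 over the 7 genes and 0.05 over all genes.

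At 21 weeks the largest differences between the DB and WT libraries were in C4b and Cfp. C4b was 3.48 times the WT level (3.24 to 3.74), at 187 (180 to 194) CPM against 53.6 (50.5 to 56.9) CPM. Cfp was at 0.344 (0.314 to 0.377), at 41.4 CPM against 120 CPM. C5ar1 was called too, at 1.52, near the 1.5-fold line. These 3 of 7 stand beside 17% of all 1676 genes called, a background larger than at 12 weeks. C1qa (1.06), C1qb (1.19), C1qc (1.15) and C3ar1 (1.24) were not called.

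The 21-week libraries differed in the make-up of their macrophages, and the ratios changed within groups of like H2-Ab1. The summed C1q ratio was above 1 over all macrophages (6917 against 6140 CPM), but 0.673 within H2-Ab1 high cells and 0.836 within low cells, with 55.8% high cells in 21-week-WT and 13.9% in 21-week-DB. For C1qa the ratios within the groups were 0.609 and 0.756, for C1qb 0.749 and 0.965, and for C1qc 0.659 and 0.825. C5ar1 was at 1.17 within high and 1.01 within low cells, against 1.52 over all. The C4b ratio was 2.33 (2.15 to 2.53) within low cells and 0.749 (0.527 to 1.04) within high cells, where its levels were 18.7 and 24.9 CPM. Cfp stayed lower in DB in both groups, at 0.580 and 0.506. In 12-week cells the summed C1q ratio was 0.880 within high and 0.664 within low cells. Shares of high cells were nearly equal in WT and DB there, 41.3% and 41.9%. The other groupings differed, with 62.0% and 52.5% Lyve1+ cells and 23.4% and 17.1% Vsig4+ cells.

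Split by Lyve1 instead, the 21-week C4b ratio was 2.66 in Lyve1+ and 9.85 in Lyve1- cells, and Cfp was at 0.449 and 0.332. The summed C1q ratio was 0.953 in Lyve1+ and 1.41 in Lyve1- cells, and C5ar1 was at 1.18 and 2.68. At 12 weeks summed C1q was lower in DB in both, at 0.816 and 0.643. Thus C4b was higher and Cfp lower in the 21-week-DB library on either side of the Lyve1 split, while the direction for C1q depended on the side. Split by Vsig4, the 21-week ratios were 3.52 in Vsig4+ and 2.92 in Vsig4- cells for C4b and 1.02 and 1.09 for summed C1q. At 12 weeks C4b was at 1.43 (1.28 to 1.59) in Vsig4+ cells and 0.496 in Vsig4- cells, so that its direction there depended on the side, and summed C1q was at 0.883 and 0.710.

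**Figure D5:**
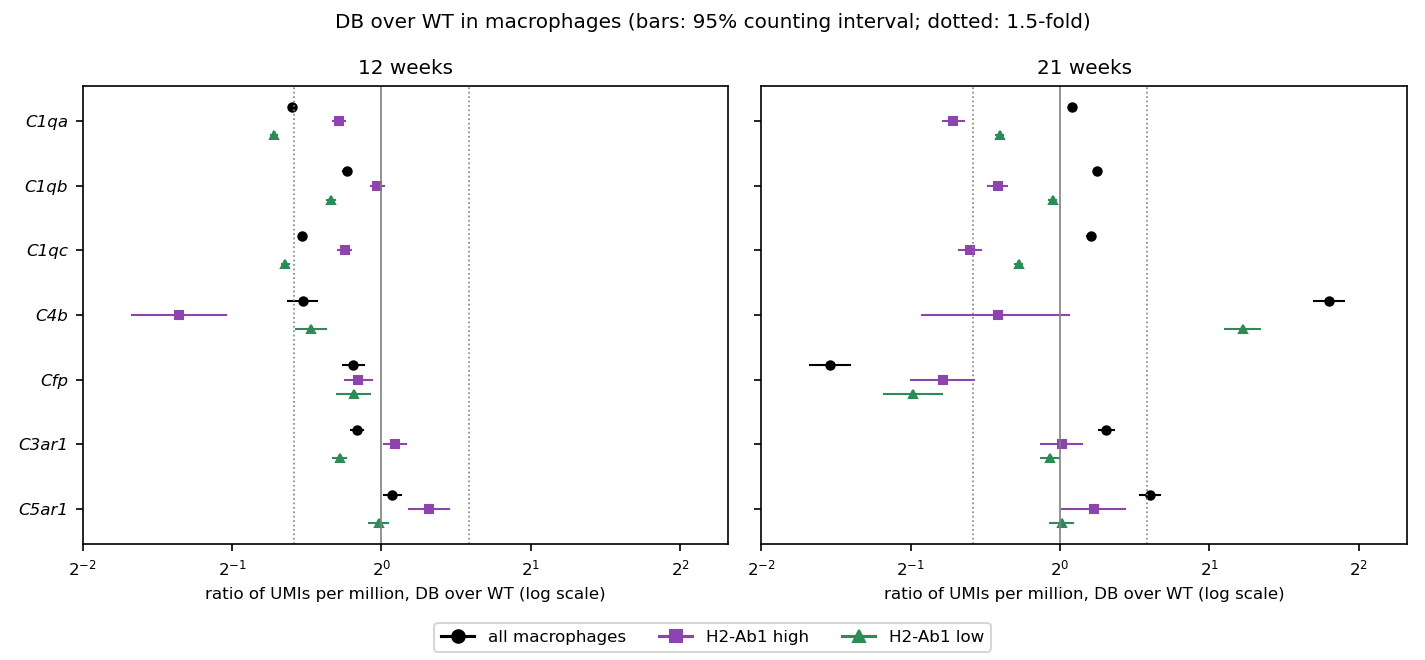
Ratio of CPM, DB over WT, on a log axis for 7 complement genes at 12 and 21 weeks, for all macrophages and for the H2-Ab1 high and low groups, with 95% counting intervals and dotted lines at 1.5-fold. At 21 weeks C4b reaches 3.48 over all macrophages and 2.33 in the low group while lying at 0.749 in the high group, and C1qa moves from 1.06 over all to 0.609 and 0.756 within the groups.

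Set side by side with age in place of genotype, the same 4 libraries gave these ratios, which reuse each library and add no independent evidence. From 12-week-WT to 21-week-WT, C4b was at 0.527 and C3ar1 at 0.630, both called lower, beside 6.21% of all 1692 genes. C1qa was at 0.893, C1qb at 1.07, C1qc at 0.822, Cfp at 0.697 and C5ar1 at 0.717. From 12-week-DB to 21-week-DB, C4b was at 2.64 and called higher, and Cfp at 0.273 and called lower, beside 21.3% of all 1782 genes. C1qa was at 1.43, C1qb at 1.50, just short of a call, and C1qc at 1.37. Under 9 alternative settings of the processing C1qb passed 1.5-fold in 3, and the count of genes called went from 2 to at most 3. The C4b level was thus lower at 21 than at 12 weeks in WT macrophages and higher in DB macrophages. Age cannot be told apart here from whatever else differed between the 12-week and 21-week libraries, among them the Cell Ranger version named in the file headers.

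Monocyte-derived cells of the DB libraries held much of their C1q in few barcodes, the 5 richest holding 52.2% at 12 weeks and 77.5% at 21 weeks. Those of 12-week-DB held 8.68 times the C1qa, 8.64 times the C1qb, 11.7 times the C1qc, 6.29 times the C3ar1 and 8.76 times the C5ar1 of 12-week-WT, where 16.6% of all genes tested were called, and the summed macrophage markers were 1414 against 618 CPM. The median barcode had 1 C1q UMI in both libraries, and with the 5 richest barcodes of each left out the summed C1q ratio went from 9.31 to 5.68. At 21 weeks the same class was at 2.72 for C1qa, 1.85 for C1qb, 2.88 for C1qc and 4.29 for C5ar1, with Cfp at 0.457 (21.8% of genes called), and the macrophage markers were 592 against 729 CPM. There the summed C1q ratio went from 2.42 to 0.952 without the 5 richest barcodes of each. These were picked by C1q itself, and 5 is a larger share of the 84 DB than of the 289 WT barcodes. The cut can thus lower DB more, and the turned direction is not a test of the ratio. C3 of monocyte-derived cells was at 1.02 at 12 weeks, and its 4 levels spanned 180 to 238 CPM.

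In neutrophils 4 of the genes were called at 12 weeks, C3 lower and the C1q chains higher in DB. The 12-week-DB library held 94.5 CPM (63.8 to 135) against 182 CPM (150 to 220) in 12-week-WT, a ratio of 0.518 (0.334 to 0.782), with 30.4% of neutrophil genes called between these libraries. The C1q chains were at 2.34 (C1qa), 2.24 (C1qb) and 2.83 (C1qc). Their summed ratio went from 2.49 to 1.10 without the 5 richest barcodes of each library. Those 5 were picked by C1q itself and are a larger share of the 84 DB than of the 114 WT neutrophils. The share of neutrophils with a C3 UMI was 28.1% and 21.4%. At 21 weeks the C3 ratio was 0.411 (0.144 to 0.952) on 6 UMIs in 36 DB cells, past 1.5-fold, but the share over all genes was not computed for classes under 50 cells. C5ar1 of neutrophils, at 358 to 510 CPM, was at 1.43 at 12 weeks and not called. The 12-week-DB neutrophils also held more macrophage markers, 1559 against 378 CPM, and the part of this in the C3 ratio was not tested.

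The other complement genes were taken from a list of 41. Of the 19 that could be tested against cDC2, 15 were higher in macrophages and 2 lower, beside 23.5% and 22.8% of all genes. Their median log2 difference was 1.68, beside 0.02 over all genes and 4.14 over the 9. Against monocyte-derived cells 10 of 18 were higher and none lower, beside 18.3% and 18% of all genes (median 0.74 beside 0.05). In neutrophils 4 of 18 were higher and 9 lower than in macrophages, beside 17.1% and 17.5% (median -1.40 beside -0.31). Vsig4 was at 415, 233, 509 and 621 CPM in macrophages and was called lower in DB at 12 weeks, at 0.561. In that comparison 2 of the 10 that met the limits were called, beside 6.85% of all genes.

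Within macrophages, in H2-Ab1 high cells 1 of the 19 tested was higher and 13 were lower, beside 18.1% and 18.2% of all genes. In Lyve1+ cells 11 of 19 were higher and 1 lower, beside 16.1% and 18%, and in Vsig4+ cells 10 of 18 were higher and 2 lower, beside 15.1% and 14.1%. Vsig4 (-3.89), Colec12 (-2.48), a collectin, and Fcna (-2.27), a ficolin of the lectin pathway, were lower on the log2 scale in H2-Ab1 high cells. Itgax, the alpha chain of complement receptor 4, was the 1 that was higher, by 4.31. At 21 weeks Lair1, an inhibitory receptor that binds C1q, was called lower in DB macrophages, at 0.628 (164 against 261 CPM), 1 of the 9 that met the limits, beside the 17% of all genes called. Itgam, the alpha chain of complement receptor 3, was at 395, 448, 360 and 286 CPM and its partner Itgb2 at 339, 314, 248 and 233 CPM. Mbl1, C8a and C8b had no UMI in any kept barcode.

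Fcnb, a ficolin of the lectin pathway made by myeloid cells, was present in WT neutrophils, at 154 and 213 CPM, and had no UMI in DB neutrophils. The 93 and 89 UMIs came from 7 and 3 barcodes, and 1 barcode held 44 and 74 of them. The WT barcodes with a UMI were among 114 and 111 neutrophils, and the DB libraries held 84 and 36 neutrophils. With so few barcodes carrying Fcnb, its absence in DB sets no lower limit on the fold, and the difference was not tested.

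Likeness was measured as Pearson's r of log2(CPM + 1) over 35 pools of class by library with at least 50 cells, among 6505 genes, and is a description over pools that share libraries and depth. Summed C1q was most like Lgmn (0.897), Ltc4s (0.895) and P2ry12 (0.894), and C4b was most like Timp2 (0.890), Rnase4 (0.862) and Cavin3 (0.854). C3ar1 was most like Adam15 (0.935), Trem2 (0.933) and Rin2 (0.926). C3 was most like Klra2 (0.954), Gm9733 (0.948) and Ifitm6 (0.946), none of them among the 3 of C1q. C5ar1 was most like Slc11a1 (0.917), Tlr13 (0.914) and Ccr1 (0.912), and Cfp most like Csf2ra (0.948), Pid1 (0.936) and Il13ra1 (0.933). Cfb was most like Fcgr1 (0.813), a marker of the macrophage gate, followed by Lamp1 (0.809) and Cndp2 (0.803).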

How the data were processed

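Sorted CD45+ hindpaw cells were profiled with 10x Genomics 3' chemistry, and the authors deposited 1 matrix of UMI counts per library, made with Cell Ranger on mm10. The labels name Cell Ranger 5.0.0, the file headers name 5.0.0 for the 12-week and 6.0.0 for the 21-week libraries. The barcode limits were 200 genes and 10% mitochondrial UMIs. A barcode joined the class with the highest share of its markers detected, of at least 3. Barcodes that tied between classes or also met a gate of another lineage (398, 479, 660 and 498) were left out. So were those that met no gate (541, 844, 1057 and 1369). Macrophages, monocyte-derived cells, neutrophils, dendritic cells and Langerhans-like cells were treated as the same lineage. A barcode that met several of their gates without a tie therefore stayed in the class with the highest share. Meeting the gates of both mast cells and type 2 innate lymphoid cells was likewise allowed. No doublet caller was used in the main values: Scrublet's own threshold marked 65, 103, 3 and 6 barcodes, and leaving out its highest scores was an alternative. H2-Ab1 high cells had a log-normalized value of at least 2, and Lyve1 and Vsig4 groups were set by any UMI, with the grouping gene left out of each fit.

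UMIs of a class were summed per library and given as CPM of the same cells, with exact Poisson intervals, exact conditional intervals of ratios and exact Clopper-Pearson intervals of shares. Class and group differences were tested on the sums with edgeR 4.0.16 in R 4.3.3 (TMM, filterByExpr, quasi-likelihood F-test blocked on library, Benjamini-Hochberg over all genes); in the neutrophil fit the quasi-likelihood spread came out as 1 common value for all genes. On simulated counts with 200 changed genes the 6 fits found 90.5% (cDC2), 73.5% (monocyte-derived), 23.5% (neutrophils), 92% (Lyve1), 94% (H2-Ab1) and 95% (Vsig4) of them. Other steps used Python 3.11.15, NumPy 2.4.6, pandas 2.3.3, SciPy 1.17.1, Scanpy 1.11.5 and Matplotlib 3.10.9. Alternatives were DESeq2 1.42.0, DESeq2 size factors, no filter, no block, each library left out, other barcode filters, thinning to 2000 UMIs and classes by cluster. Ratios between conditions used 1 library each and have no test. The ages in weeks are from the study's methods, since the labels say young and aged. The 9 genes, the list of 41 and the marker lists were chosen with earlier results of these data known. Named genes were the 9 in every class, those of the 41 with at least 50 CPM in macrophages or neutrophils or over 1.5-fold between DB and WT there, and the 3 genes most like each; 1 gene of the 41 is not reported here by name.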

Additional observations from a re-analysis of the deposited data

Results flagged for a closer look

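For 5 of the 9 complement genes the macrophage ratio of DB over WT lay on opposite sides of 1 at the 2 ages. The share of all genes for which this holds was not computed, so the count is not a result about complement genes. C1qa was at 0.661 at 12 weeks and 1.06 at 21 weeks, C1qb at 0.850 and 1.19, and C1qc at 0.690 and 1.15. C4b was at 0.694 and 3.48, and C3ar1 at 0.894 and 1.24. Each side is 1 library against 1 library, so the difference between the ages was not tested. The directions depend on the macrophages compared. The 21-week ratio of summed C1q was below 1 within both H2-Ab1 groups (0.673 and 0.836) and above 1 within both Vsig4 groups (1.02 and 1.09). For C4b the 21-week ratio was 2.33 in the H2-Ab1 low and 0.749 in the high group, and the 12-week ratio was 1.43 in Vsig4+ and 0.496 in Vsig4- cells.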

How the results depend on the processing

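The called macrophage ratios kept their direction under the 9 alternatives tried, 2 of which (a gate of at least 4 markers, and shared barcodes left out) were chosen after seeing the data: C1qa at 12 weeks spanned 0.633 to 0.667, C4b at 21 weeks 3.32 to 4.42 and Cfp at 21 weeks 0.322 to 0.389, while C5ar1 at 21 weeks spanned 1.39 to 1.63 and passed 1.5-fold in 6 of 9. The count of genes called at 12 weeks went from 1 to 3 with the mean of each cell's own CPM and with thinning, and the count between WT ages from 2 to 1 with at most 5% mitochondrial UMIs and by cluster, and to 4 with thinning; the C4b and C3ar1 folds of that comparison stayed past 1.5-fold in 9 of 9, and C4b, at 101.8 CPM, is close to the 100 CPM limit. With the 5 barcodes richest in C1q of each library left out, also chosen after seeing the data, the 21-week C1q ratio changed. It went from 2.42 to 0.952 in monocyte-derived cells and from 4.85 to 0.471 in neutrophils. This cut is by C1q itself and takes a larger share of the smaller DB gates. The 0.471 rests on 2 C1q UMIs in 31 DB neutrophils, and the turned directions are not a test of these ratios. Without the replicate block of library, genes lower in macrophages than in cDC2 went from 1 to 0, genes lower in Lyve1+ cells from 2 to 1, genes higher in H2-Ab1 high cells from 2 to 1, and in Vsig4+ cells those higher from 6 to 2 and those lower from 2 to 0; of the 54 single-gene values, 12 lost their call. Leaving out 1 library at a time, the genes lower in macrophages than in cDC2 numbered 0 to 1, and of 216 single-gene values 4 lost a call and 1 gained one: Cfp and C3 against cDC2 and Cfb in neutrophils, as given above, and Cfb in Lyve1+ cells, lost without 12-week-WT (edgeR adjusted p = 0.0562). Of the other 270 values 1 changed its call, Cfb in Vsig4+ cells with no filter (edgeR adjusted p = 0.0132). The cause of these changes was not tested. No paired replicates exist between conditions, as each has 1 library. The few neutrophils, Langerhans-like cells and stromal barcodes limit what depth can show there.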

Other observations

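A regulator and a receptor of complement stood out in mast cells and B cells and were chosen after their values were seen. Cd55, which speeds the decay of C3 convertases, was at 599, 819, 574 and 647 CPM in mast cells of the 4 libraries. Cr2, the receptor for C3d on B cells, was at 97.6, 129, 107 and 28.6 CPM in B cells. The 21-week-DB value rested on 5 UMIs in 3 of 47 B cells. Neither was compared between conditions.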
